A study of Mus musculus with 12 samples.

Results

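Thymocytes at the DN3 stage that lack the transcription factor TCF-1 were compared with wild-type DN3 thymocytes of the mouse. The comparison took its members by the titles of the samples, which gave 3 arrays of wild-type and 3 arrays of TCF-1-deficient DN3 cells, 6 of the 12 arrays of the series. The other 6 arrays hold lymphomas that arose in the thymus of TCF-1-deficient animals, and their levels are given beside some results. All mice were of strain C57/BL6. The DN3 donors, wild-type (WT) or TCF-1 KO by label, were 8 to 12 weeks old and the lymphoma-bearing TCF-1 KO mice 12 to 40 weeks. No mouse in any group was labelled as treated. Cells were sorted from the thymus into Trizol LS, and between 800 pg and 50 ng of RNA was amplified with the NuGEN WT-Ovation Pico system, which serves very small samples, before hybridisation to the Affymetrix Mouse Gene 1.0 ST array. How the gene was disrupted, in which cells, by which surface markers the gate was set and from how many mice each sample came is not stated in the labels.

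TCF-1 is a DNA-binding protein of the HMG-box family. It recruits beta-catenin when Wnt signalling is active and Groucho-type corepressors when it is not, and in the thymus it acts downstream of Notch to set up the T cell programme. DN3 thymocytes express CD25 but neither CD4 nor CD8. They rearrange the T cell receptor beta gene and stop dividing until a pre-T cell receptor signals, after which they pass to the CD4 and CD8 double-positive (DP) stage.

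The values were log2 signals, in which a difference of 1 is a 2-fold change, and a row's brightness depends on its probes as well as on the RNA, so levels are compared between arrays and not between genes. Of 19938 genes, 14953 were bright enough to be tested, and array medians lay between 5.30 and 5.39. The gene deleted in the mutant mice was not analysed here, which leaves the genotypes as labelled. The arrays were split by 34 rows that have no gene name: the median of these rows was 6.26 and 6.32 on the pair of arrays numbered 1 and 8.54 to 8.86 on the other 4. This split, which the labels do not name, is called a batch here, and each part held both genotypes. A different split of the arrays was shared by 27 unnamed rows, so the batch is not the only grouping in such rows. TCF-1-deficient replicate 3 stood apart in Xist, the RNA of the inactive X chromosome, at 4.13 against 10.10 to 10.58 on the other 5 arrays, and sex is not given in the labels. The markers of the stage were looked up in both groups. All 15 DN3 genes measured had group means above the level used as a filter (4.78), the 25th percentile of all genes. Cd4 lay above that level too, at 4.80 to 5.26, so passing it does not show that a marker is present. Il2ra, which encodes CD25, was at 10.37 to 10.88, Rag1 at 9.93 to 10.53 and Ptcra, the pre-T cell receptor chain, at 7.01 to 7.46.

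DN3 cells without TCF-1 differed from wild-type DN3 cells in a limited number of genes, some of them by a large factor. At a limma adjusted p under 0.05, the rule for every call here, 298 genes differed (1.99% of those tested), 85 higher (0.568%) and 213 lower (1.42%) without TCF-1. Of these, 65 also differed at least 2-fold (0.435%), 29 of them higher (0.194%) and 36 lower (0.241%). Over all genes tested the median difference was 0.03, and 55.3% lay above 0. The gene lists used below were chosen with earlier results of these data known, so counts of calls in them are not a result about the lists. The 3 and 3 arrays did not overlap in 3296 of the genes tested (22.0%), far more than were called, so a lack of overlap alone says little. Of the calls 28.5% were higher, and that share turned on single arrays. It was 54.4% without wild-type replicate 2 (31 higher and 26 lower), 54.0% without TCF-1-deficient replicate 3 (68 higher and 58 lower) and 39.3% with arrays quantile-normalised again (96 higher and 148 lower). In a bulk measurement of this kind, fewer cells of a type and less RNA per cell cannot be told apart.

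With the replicate number as a block, which pairs same-numbered arrays, 1380 genes were called (9.23%), 431 higher (2.88%) and 949 lower (6.35%), and these include all 298. The labels do not state such a pairing, and the fit behind the 298 calls had no block. Wild-type replicate 2 carried the most weight: without it 57 genes were called (31 higher and 26 lower). Leaving out wild-type replicate 1 gave 122, wild-type replicate 3 gave 154 and TCF-1-deficient replicate 3 gave 126. Without TCF-1-deficient replicate 1 there were 252 calls and without replicate 2 there were 443. The calls that held whichever array was left out numbered 55 (30 higher and 25 lower), and 43 of the 65 genes at 2-fold or more were among them (23 higher and 20 lower).

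**Figure D1:**
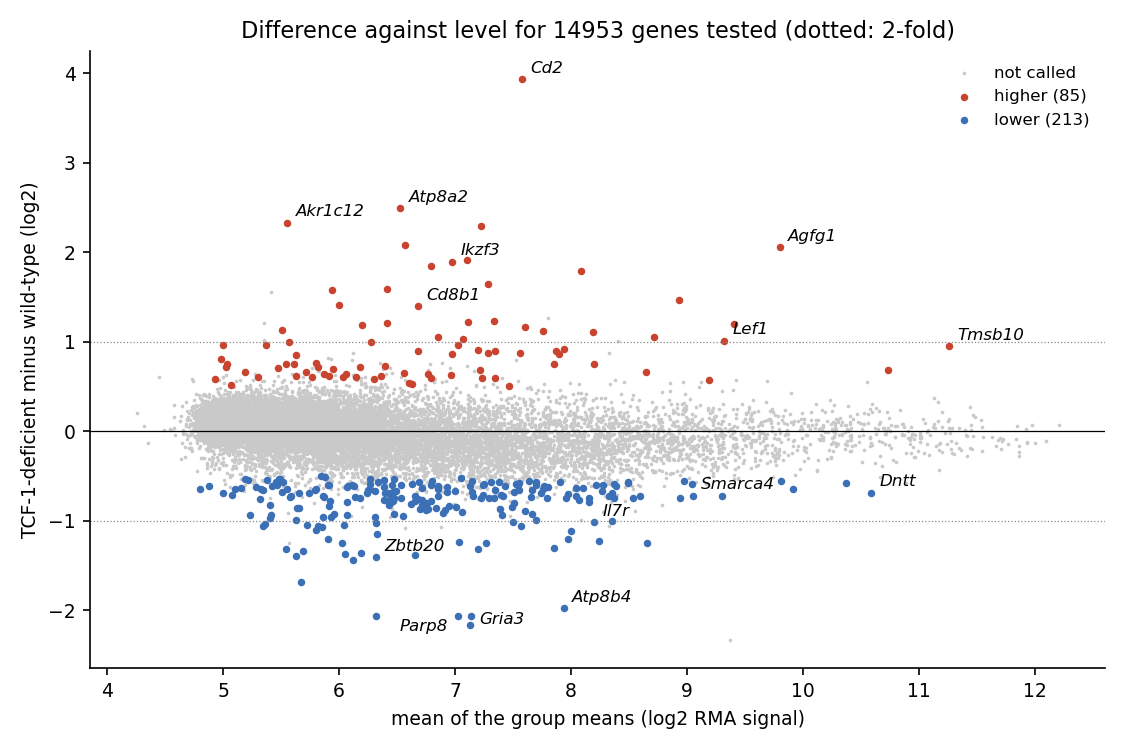
Log2 difference (TCF-1-deficient minus wild-type DN3) of the 14953 genes tested against the mean of the group means (log2 RMA signal), with called genes in red (85 higher) and blue (213 lower) and dotted lines at 2-fold. Cd2 lies farthest up at 3.94 and Parp8 lowest among the called genes at -2.16; the grey point near -2.33 is Xist.

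The largest single difference concerned Cd2, a surface receptor of T and NK cells that binds CD48 and supports contact between cells. Its signal was at 5.49, 5.81 and 5.53 on wild-type replicates 1, 2 and 3 and at 9.61, 9.45 and 9.59 on the TCF-1-deficient arrays. The lowest TCF-1-deficient array was thus far above the highest wild-type array, and the difference was 3.94 (SE 0.13, limma adjusted p = 8.03e-08), or 15.3-fold. Both chains of the CD8 coreceptor, which first appear on the cell surface after the DN3 stage, were also higher. Cd8b1 was at 6.20, 5.80 and 5.95 with TCF-1 and at 7.41, 7.34 and 7.40 without it, and Cd8a at 5.71, 5.67 and 6.03 with TCF-1 and at 7.05, 7.03 and 6.98 without it. Neither gene overlapped between the groups, and they rose by 1.40 (SE 0.13, limma adjusted p = 0.000455) and 1.21 (SE 0.13, limma adjusted p = 0.00111). The Cd8a call was not made in 1 fit to all 12 arrays (adjusted p = 0.129, range over the 17 alternatives 7.67e-05 to 0.129). Cd5, a receptor that dampens T cell receptor signals, rose by 0.63 (SE 0.13, limma adjusted p = 0.038) from 6.38, 6.52 and 6.45 to 7.17, 6.83 and 7.25. The CD4 coreceptor gene did not follow: it was at 5.26, 4.80 and 4.92 with TCF-1 and at 5.09, 5.14 and 5.14 without it, a difference of 0.13 that was not called (adjusted p = 0.655). Of 22 genes of the T cell receptor complex, coreceptors and costimulatory receptors that were tested, these 4 rose, 18 did not pass and no member fell, with 10 called higher and none lower under the replicate block. The median over the 22 was 0.27, beside 0.03 over all genes tested, of which 1.99% were called. The invariant chain genes had uncalled differences of 0.22 for Cd3d, -0.21 for Cd3e, -0.25 for Cd3g and -0.06 for Cd247, the CD3 zeta gene. Called with the block alone were Ctla4, an inhibitory receptor (0.87, adjusted p = 0.000613 with the block and 0.000613 to 0.271 over the alternatives), Cd6, Ly9, Slamf6, Slamf1 and Icos, the last 5 with differences of 0.40 to 0.56. The call of Cd5 was lost without wild-type replicates 1, 2 or 3 (adjusted p = 0.141, 0.137 and 0.108) or TCF-1-deficient replicates 1 or 3 (0.0722 and 0.17). Cd5 (adjusted p = 0.163) was not called in the larger batch alone.

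**Figure D2:**
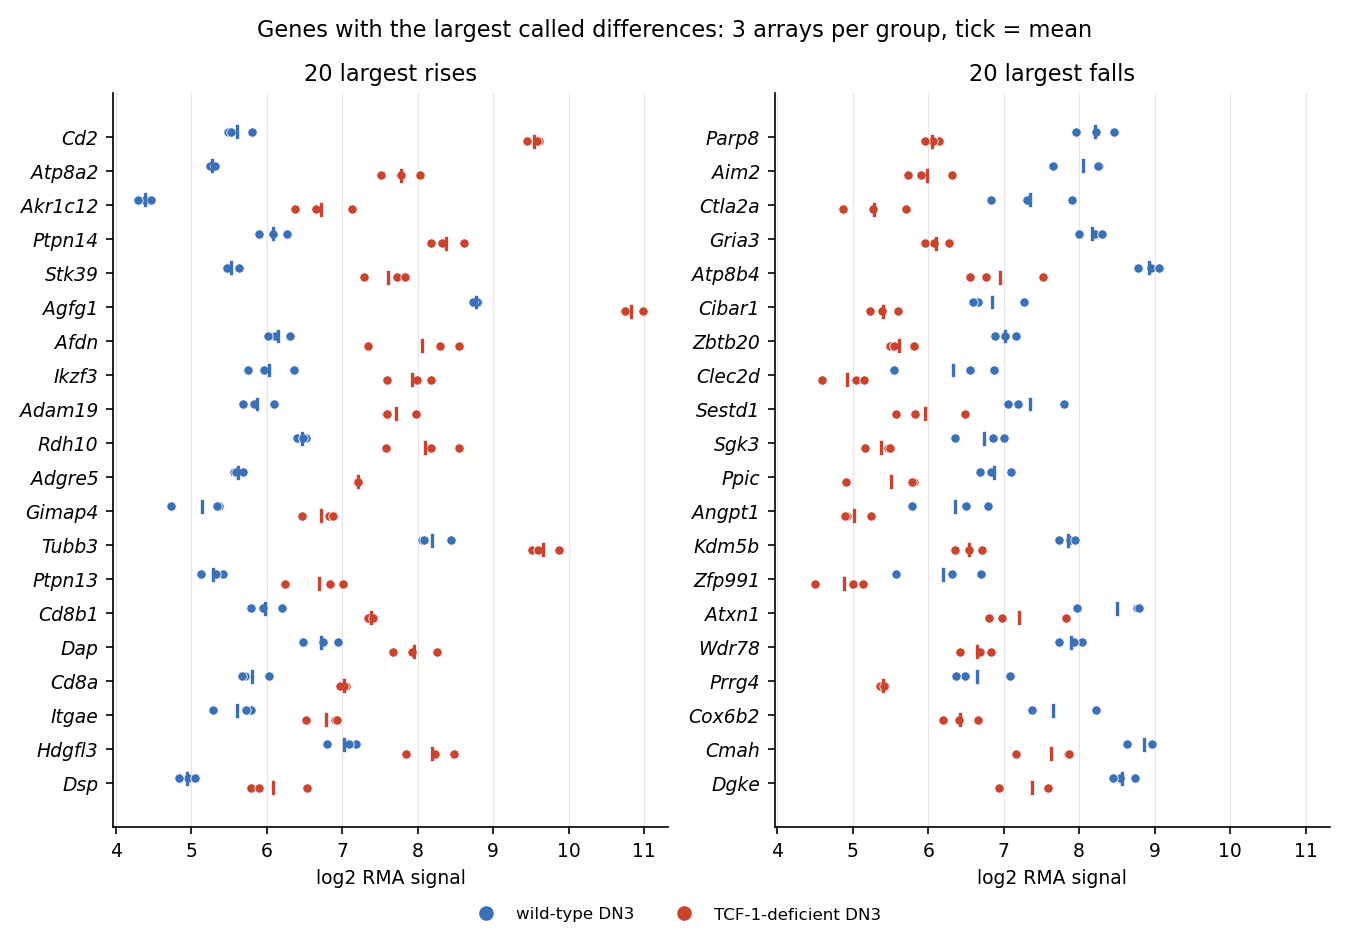
Log2 RMA signal on each of the 3 wild-type (blue) and 3 TCF-1-deficient (red) DN3 arrays for the 20 largest rises and the 20 largest falls among called, named genes whose groups do not overlap; ticks mark group means. The gap is widest for Cd2 (5.49 to 5.81 against 9.45 to 9.61), and Afdn has its lowest TCF-1-deficient array at 7.34, that of replicate 3.

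In the list of receptor-proximal kinases, adaptors and phosphatases Ptpn14, Fyn, Txk and Dgka rose. Ptpn14, a tyrosine phosphatase with a FERM domain that is best known from epithelial cells, rose the most: it was at 6.27, 5.89 and 6.08 with TCF-1 and at 8.18, 8.61 and 8.32 without it, a rise of 2.29 (SE 0.15, limma adjusted p = 2.7e-05). Ptpn13, a second phosphatase with a FERM domain, was at 5.42, 5.13 and 5.32 with TCF-1 and at 7.02, 6.84 and 6.24 without it and rose by 1.41 (limma adjusted p = 0.00478). In both genes all TCF-1-deficient arrays lay above all wild-type arrays. Fyn, a Src-family kinase that acts at the receptor, rose by 0.88 (adjusted p = 0.0359), from 7.09, 7.25 and 7.04 to 8.14, 8.32 and 7.54, with replicate 3 the lowest of the TCF-1-deficient arrays. Txk, a Tec-family kinase, rose by 0.75 and Dgka, which removes the second messenger diacylglycerol, by 0.75 (adjusted p = 0.011 and 0.0237). The kinase gene Zap70 stood 0.60 higher without a call (adjusted p = 0.128), and was called with the block (adjusted p = 0.0138, 0.0138 to 0.374 over the alternatives). Lck was not analysed here. Of 34 receptor-proximal kinases, adaptors and phosphatases tested, these 4 rose and 30 did not pass, beside 1.99% called over all genes tested. There was no fall, and the median was -0.07. With the block 7 were called higher and 3 lower, and the 3 were Ptpn22, Plcg1 and Vav1, with differences of -0.46, -0.45 and -0.39. Further down the pathway, Camk4 and Ppp3ca, which lie outside the lists, were picked after their values were seen. Camk4, a calcium-dependent kinase, was at 6.27, 6.44 and 6.25 with TCF-1 and at 7.03, 7.46 and 7.64 without it and rose by 1.05 (adjusted p = 0.00841). Ppp3ca, the catalytic subunit of the calcium-dependent phosphatase calcineurin, was at 6.61, 6.61 and 6.42 with TCF-1 and at 7.52, 7.47 and 7.53 without it and rose by 0.96 (adjusted p = 0.00259). Dusp10, a phosphatase of stress-activated MAP kinases from the list of DP and mature T cell markers, rose by 0.92 (adjusted p = 0.00714), and the calls of all 3 held without any single array. The call of Fyn was lost without wild-type replicates 1, 2 or 3 (adjusted p = 0.109, 0.118 and 0.117) or TCF-1-deficient replicates 1 or 2 (0.0707 and 0.0667), and that of Txk without wild-type replicate 2 (adjusted p = 0.0854). The call of Dgka was lost without wild-type replicates 1, 2 or 3 (adjusted p = 0.0937, 0.0963 and 0.0774) or TCF-1-deficient replicate 3 (0.0848). Dgka (adjusted p = 0.0658, range 0.00144 to 0.0963) and Txk (adjusted p = 0.0548, range 0.00171 to 0.0854) were not called in 1 fit to all 12 arrays. Fyn (adjusted p = 0.132) and Txk (adjusted p = 0.0554) were not called in the larger batch alone. Fyn (adjusted p = 0.0514) was not called without a filter.

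The adhesion list, which is the longest, gave 6 rises and 2 falls. Afdn, which encodes afadin and ties nectin junctions to actin, was at 6.11, 6.02 and 6.31 with TCF-1 and at 8.29, 8.55 and 7.34 without it. Replicate 3 was the lowest of the TCF-1-deficient arrays, though still above every wild-type array, and the rise was 1.91 (SE 0.25, limma adjusted p = 0.00478), or 2.27 without replicate 3. Adam19, a membrane metalloprotease, was at 5.83, 5.69 and 6.10 with TCF-1 and at 7.58, 7.97 and 7.59 without it and rose by 1.84 (adjusted p = 0.000161). Adgre5, the adhesion receptor CD97, was at 5.57, 5.59 and 5.69 with TCF-1 and at 7.20, 7.21 and 7.21 without it and rose by 1.59 (adjusted p = 3.49e-05). Itgae encodes the integrin chain CD103, which with beta 7 binds E-cadherin. It was at 5.79, 5.72 and 5.29 with TCF-1 and at 6.90, 6.93 and 6.52 without it and rose by 1.19 (adjusted p = 0.00579), while its partner Itgb7 differed by 0.01 (adjusted p = 0.966). The tetraspanin gene Cd82 and the leukocyte integrin gene Itgb2 rose by 1.12 and 0.72 (adjusted p = 0.0167 and 0.0178). In the other direction, Itga4, the alpha 4 chain of VLA-4, fell by 0.73 and Alcam, a ligand of CD6, fell by 0.78 (adjusted p = 0.03 and 0.00758). Of 50 adhesion, integrin and junction genes tested, 6 rose, 2 fell and 42 did not pass, beside 1.99% called over all genes tested. The median was 0.08, and the block called 8 higher and 5 lower. Cdh1, the E-cadherin gene, stood 0.71 higher without a call (adjusted p = 0.11). Dsp, which encodes the desmosomal protein desmoplakin, rose by 1.13 (adjusted p = 0.0108). The call of Cd82 was lost without wild-type replicates 2 or 3 (adjusted p = 0.103 and 0.0636), and that of Itgb2 without wild-type replicates 1 or 2 (adjusted p = 0.0655 and 0.119) or TCF-1-deficient replicate 3 (0.0897). The call of Itga4 was lost without wild-type replicates 1, 2 or 3 (adjusted p = 0.0852, 0.156 and 0.0889), and that of Alcam without wild-type replicate 2 (adjusted p = 0.0576). The call of Dsp was lost without wild-type replicates 2 or 3 (adjusted p = 0.055 and 0.0546). Alcam (adjusted p = 0.544, range 0.00101 to 0.544), Itga4 (adjusted p = 0.258, range 0.00303 to 0.258) and Itgae (adjusted p = 0.0945, range 3.17e-05 to 0.0945) were not called in 1 fit to all 12 arrays. Cd82 (adjusted p = 0.0538), Itga4 (adjusted p = 0.0897) and Itgb2 (adjusted p = 0.0664) were not called in the larger batch alone. Itga4 (adjusted p = 0.0571) was not called after repeated quantile normalisation.

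Cytoskeletal genes were looked at after their values were seen. Tubb3, a beta-tubulin isotype typical of neurons, was at 8.44, 8.06 and 8.08 with TCF-1 and at 9.88, 9.52 and 9.60 without it and rose by 1.47 (SE 0.15, limma adjusted p = 0.000708). The isotypes Tubb2b and Tubb2a rose by 0.85 and 0.57 (adjusted p = 0.014 and 0.0301), whereas Tubb5, the common isotype of lymphocytes, differed by 0.08 (adjusted p = 0.755). Tmsb10, which binds actin monomers, was at 10.98, 10.75 and 10.63 with TCF-1 and at 11.81, 11.69 and 11.70 without it and rose by 0.95 (adjusted p = 0.00478). Vim, the intermediate filament protein vimentin, rose by 1.10 (adjusted p = 0.0116), with its 3 TCF-1-deficient arrays spread from 8.36 to 9.14. The call of Tubb2b was lost without wild-type replicates 1 or 2 (adjusted p = 0.0583 and 0.0954) or TCF-1-deficient replicate 3 (0.0644), and that of Tubb2a without wild-type replicates 1, 2 or 3 (adjusted p = 0.0809, 0.132 and 0.109) or TCF-1-deficient replicates 2 or 3 (0.0529 and 0.109). The call of Vim was lost without wild-type replicates 2 or 3 (adjusted p = 0.0752 and 0.0593).

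Among TCF/LEF factors and the beta-catenin pathway, Lef1 rose, and other members moved both ways. Lef1, the relative of TCF-1 that binds the same motif, was at 8.67, 8.83 and 8.93 with TCF-1 and at 9.64, 9.84 and 9.99 without it, with no overlap, and rose by 1.01 (limma adjusted p = 0.0043). Tcf7l2, another factor of the family, fell by 0.61 and Tle3, a Groucho-type corepressor, fell by 0.57 (adjusted p = 0.0211 and 0.0363). Of the feedback and target genes, Sp5 rose by 0.67 (adjusted p = 0.0213), from 4.99, 4.78 and 4.78 to 5.60, 5.37 and 5.59, and Ccnd2, a G1 cyclin, fell by 0.72 (adjusted p = 0.0286). Axin2, the usual reporter of beta-catenin signalling, was at 5.94, 5.55 and 5.57 with TCF-1 and at 6.26, 5.71 and 5.96 without it. Its groups overlapped, and the difference of 0.29 was not called (adjusted p = 0.401). Myc differed by -0.28 (adjusted p = 0.338). In all 2 of the 40 members rose, 3 fell and 35 did not pass, beside 1.99% called over all genes tested. The median was 0.04 with 25 members above 0, and the block called 4 higher and 3 lower. The call of Tcf7l2 was lost without wild-type replicates 1, 2 or 3 (adjusted p = 0.0798, 0.137 and 0.061) or TCF-1-deficient replicate 3 (0.0946), and that of Tle3 without wild-type replicates 1, 2 or 3 (adjusted p = 0.0839, 0.188 and 0.116) or TCF-1-deficient replicates 2 or 3 (0.0617 and 0.156). The call of Sp5 was lost without wild-type replicates 2 or 3 (adjusted p = 0.131 and 0.0846) or TCF-1-deficient replicate 3 (0.0994), and that of Ccnd2 without wild-type replicates 1, 2 or 3 (adjusted p = 0.0966, 0.12 and 0.0924) or TCF-1-deficient replicate 3 (0.088). Ccnd2 (adjusted p = 0.102, range 0.0036 to 0.12) was not called in 1 fit to all 12 arrays. Tcf7l2 (adjusted p = 0.0664) was not called in the larger batch alone. Tle3 (adjusted p = 0.11) was not called after repeated quantile normalisation. Tle3 (adjusted p = 0.0515) was not called with a trended robust variance.

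The deleted factor binds short DNA motifs, so the promoters were read for them. The windows are those of RefSeq on build GRCm38.p6, 250 bases before to 50 after a gene's start, and the motif was spelled CTTTGAA in its first form, with CTTTGAT as another, CTTTGTA as the third and CTTTGTT as the last, on either strand. Such a match was present in 14.5% of the 11776 tested genes with a window. Genes called higher had one in 20% of 65 and those called lower in 22.7% of 163. Of all 27025 genes with a window, tested or not, 18.9% had one. The tested genes had 14744 windows, those called higher 90 and those called lower 228. Called genes thus had more windows each, which can raise a share per gene. Per window the share was 12.3% for tested genes, 14.4% for those called higher and 16.9% over all 32851 windows. Windows of genes called lower had the highest share of these. Among calls of at least 2-fold, 1 of 18 rises (Lef1) and 6 of 26 falls had a match. These shares are a description, without a test, and a match is not a bound site. Shown first are Lef1 and the pairs of largest rises and of largest falls that have a window, with any motif in capitals. Of the 4 windows of Lef1 only the one at chr3:131156044-131156343 (plus strand) holds a match, TACAAAG at -147 from the start on the coding strand; those of Akr1c12 (chr13:4279350-4279649, minus strand), Ptpn14 (chr1:189728018-189728317, plus strand), Parp8 (chr13:117025482-117025781, minus strand) and Aim2 (chr1:173420354-173420653, plus strand) hold none.
Lef1: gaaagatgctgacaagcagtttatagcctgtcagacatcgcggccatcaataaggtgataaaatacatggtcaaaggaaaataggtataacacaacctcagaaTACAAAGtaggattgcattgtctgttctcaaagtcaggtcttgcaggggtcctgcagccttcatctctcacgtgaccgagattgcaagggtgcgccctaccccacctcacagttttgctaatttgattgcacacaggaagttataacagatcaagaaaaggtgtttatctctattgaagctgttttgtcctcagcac
Akr1c12: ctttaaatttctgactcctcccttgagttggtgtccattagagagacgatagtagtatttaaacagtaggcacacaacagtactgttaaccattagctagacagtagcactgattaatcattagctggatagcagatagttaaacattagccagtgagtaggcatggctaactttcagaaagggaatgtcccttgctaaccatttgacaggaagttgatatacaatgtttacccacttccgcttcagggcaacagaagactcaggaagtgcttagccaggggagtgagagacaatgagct
Ptpn14: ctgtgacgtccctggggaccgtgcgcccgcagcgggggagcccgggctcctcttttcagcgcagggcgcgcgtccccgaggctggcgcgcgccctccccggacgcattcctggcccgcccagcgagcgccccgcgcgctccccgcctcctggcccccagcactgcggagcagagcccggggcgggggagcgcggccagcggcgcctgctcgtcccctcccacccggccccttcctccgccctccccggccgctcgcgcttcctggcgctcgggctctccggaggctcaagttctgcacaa
Parp8: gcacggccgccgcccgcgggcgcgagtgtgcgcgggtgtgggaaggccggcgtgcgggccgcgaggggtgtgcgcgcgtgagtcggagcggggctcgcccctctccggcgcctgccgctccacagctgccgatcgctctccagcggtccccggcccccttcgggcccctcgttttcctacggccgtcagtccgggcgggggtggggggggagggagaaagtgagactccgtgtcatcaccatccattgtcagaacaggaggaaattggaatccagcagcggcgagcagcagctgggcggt
Aim2: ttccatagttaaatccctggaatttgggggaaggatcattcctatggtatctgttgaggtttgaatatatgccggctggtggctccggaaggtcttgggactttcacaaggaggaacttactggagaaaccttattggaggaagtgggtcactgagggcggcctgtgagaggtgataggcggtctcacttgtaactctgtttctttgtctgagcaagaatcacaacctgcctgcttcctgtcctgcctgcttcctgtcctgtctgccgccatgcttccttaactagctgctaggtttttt
3 genes that fell and do hold the motif were added after the search, Prrg4 (chr2:104849801-104850100, minus strand), Cmah (chr13:24327154-24327453, plus strand) and Tsc22d1 (chr14:76414711-76415010, plus strand), with the matches again in capitals.
Prrg4: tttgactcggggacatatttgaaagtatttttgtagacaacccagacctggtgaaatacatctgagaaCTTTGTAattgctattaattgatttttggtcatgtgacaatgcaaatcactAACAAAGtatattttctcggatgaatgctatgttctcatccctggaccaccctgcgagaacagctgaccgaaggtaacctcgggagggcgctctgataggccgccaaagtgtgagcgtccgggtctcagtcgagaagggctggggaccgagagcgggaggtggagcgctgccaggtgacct
Cmah: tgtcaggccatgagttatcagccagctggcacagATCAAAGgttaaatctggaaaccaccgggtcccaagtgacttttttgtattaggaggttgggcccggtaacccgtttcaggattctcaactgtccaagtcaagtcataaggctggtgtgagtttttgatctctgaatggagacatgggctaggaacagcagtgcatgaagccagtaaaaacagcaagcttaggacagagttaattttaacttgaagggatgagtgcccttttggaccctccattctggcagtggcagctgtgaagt
Tsc22d1: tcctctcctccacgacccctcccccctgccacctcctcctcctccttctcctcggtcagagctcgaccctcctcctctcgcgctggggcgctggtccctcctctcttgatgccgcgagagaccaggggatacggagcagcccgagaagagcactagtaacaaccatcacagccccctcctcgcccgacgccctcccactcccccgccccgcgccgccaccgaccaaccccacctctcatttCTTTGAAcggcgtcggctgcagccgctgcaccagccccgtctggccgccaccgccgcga
Prrg4, a transmembrane protein with a Gla domain, was at 7.08, 6.49 and 6.36 with TCF-1 and at 5.36, 5.43 and 5.42 without it and fell by 1.25 (limma adjusted p = 0.00569). Cmah, which hydroxylates a sialic acid, was at 8.96, 8.97 and 8.64 with TCF-1 and at 7.86, 7.87 and 7.16 without it and fell by 1.23 (adjusted p = 0.0095). Tsc22d1, a leucine-zipper regulator, fell by 1.06 (adjusted p = 0.00356). Cd2 and Atp8a2 are named here without a window. The call of Cmah was lost without wild-type replicate 2 (adjusted p = 0.0661).

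Of the T-lineage transcription factors, Ikzf3 was the member that rose. It encodes Aiolos, an Ikaros-family zinc-finger protein of lymphocytes, and was at 5.97, 6.36 and 5.75 with TCF-1 and at 7.59, 8.18 and 7.99 without it, a rise of 1.89 (SE 0.18, limma adjusted p = 0.000646). Of 29 such factors tested 1 rose and 28 did not pass, without a fall, beside 1.99% called over all genes tested. The median was 0.06, and the block added Id3 (0.42, adjusted p = 0.034 with the block and 0.034 to 0.707 over the alternatives). Factors that commit cells to the T lineage were not called: Bcl11b was at 7.07, 6.99 and 7.24 with TCF-1 and at 7.16, 7.13 and 7.24 without it, and Gata3 at 7.91, 8.12 and 8.12 with TCF-1 and at 7.67, 8.07 and 7.99 without it. Both overlapped between the groups, with differences of 0.08 and -0.14 (adjusted p = 0.76 and 0.637). Notch1 differed by 0.13 without a call (adjusted p = 0.687). Of 2 of its targets, Dtx1 rose by 0.63 (adjusted p = 0.0484), and Hes1 stood 0.60 lower without a call (adjusted p = 0.239), with a call under the block (adjusted p = 0.00909, 0.00909 to 0.566 over the alternatives). The call of Dtx1 was lost without wild-type replicates 1, 2 or 3 (adjusted p = 0.141, 0.222 and 0.117) or TCF-1-deficient replicates 1 or 2 (0.0792 and 0.079). Dtx1 (adjusted p = 0.145) was not called in the larger batch alone. Dtx1 (adjusted p = 0.0619) was not called without a filter. Dtx1 (adjusted p = 0.0582) was not called with a trended robust variance. Dtx1 (adjusted p = 0.063) was not called with median-centred arrays.

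Genes of progenitors and of other lineages gave falls and no rise. Zbtb20, a zinc-finger repressor, was at 7.16, 7.01 and 6.88 with TCF-1 and at 5.49, 5.81 and 5.55 without it and fell by 1.40 (SE 0.13, limma adjusted p = 0.000476). Kit, the receptor for stem cell factor that thymic progenitors carry before the DN3 stage, was at 6.01, 6.17 and 6.09 with TCF-1 and at 5.55, 5.32 and 5.33 without it and fell by 0.69 (adjusted p = 0.0149). Angpt1, a ligand of the Tie2 receptor, fell by 1.34 and Igf1r, the receptor for insulin-like growth factors, fell by 0.92 (adjusted p = 0.0129 and 0.00507). These 4 of 24 tested were lower and 20 did not pass, beside 1.42% called lower and 0.568% higher over all genes tested. The counts were the same under the block, and the median of the list was 0.02. The myeloid factor genes Spi1 and Cebpa differed by 0.10 and 0.26 and Gata2 by 0.16, without calls. Further factors that fell were picked after their values were seen: Zeb2 by 0.97, Nfix by 0.60, Etv6 by 0.61 and the E-protein gene Tcf4 by 0.52 (adjusted p = 0.0165, 0.0272, 0.0333 and 0.0441). The call of Kit was lost without wild-type replicates 2 or 3 (adjusted p = 0.104 and 0.0611) or TCF-1-deficient replicate 3 (0.0729), and that of Angpt1 without wild-type replicate 2 (adjusted p = 0.0628) or TCF-1-deficient replicate 3 (0.0769). The call of Zeb2 was lost without wild-type replicates 1 or 2 (adjusted p = 0.0669 and 0.104) or TCF-1-deficient replicate 3 (0.0889), and that of Nfix without wild-type replicates 1, 2 or 3 (adjusted p = 0.106, 0.112 and 0.0924) or TCF-1-deficient replicates 2 or 3 (0.0522 and 0.0527). The call of Etv6 was lost without wild-type replicates 1, 2 or 3 (adjusted p = 0.0788, 0.185 and 0.1) or TCF-1-deficient replicates 1 or 3 (0.059 and 0.15), and that of Tcf4 without wild-type replicates 1, 2 or 3 (adjusted p = 0.163, 0.202 and 0.095) or TCF-1-deficient replicates 2 or 3 (0.0614 and 0.173). Igf1r (adjusted p = 0.0564, range 0.000499 to 0.0564) was not called in 1 fit to all 12 arrays. Angpt1 (adjusted p = 0.0532) was not called in the larger batch alone.

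Il7r and Ccr9, receptors that thymocytes use at this stage, were lower. Il7r, the alpha chain of the interleukin 7 receptor, was at 8.64, 8.76 and 8.72 with TCF-1 and at 7.73, 8.06 and 7.29 without it. The groups did not overlap, replicate 3 was again the lowest TCF-1-deficient array, and the fall was 1.01 (limma adjusted p = 0.0149). Ccr9, which guides progenitors towards its ligand in the thymus, was at 6.83, 7.01 and 6.85 with TCF-1 and at 5.51, 6.11 and 5.64 without it and fell by 1.14 (adjusted p = 0.00569). Ccr4 rose by 0.76 (adjusted p = 0.0111). Il7r was the 1 called member of 32 cytokine receptor and JAK-STAT genes, beside 1.99% called over all genes tested. The median of the 32 was -0.12, and the block called 1 higher (Il6ra) and 5 lower. Among those 5 was Stat4, which transmits interleukin 12 signals, at 7.38, 7.45 and 6.52 with TCF-1 and at 6.17, 6.41 and 5.51 without it. Its groups did not overlap, the difference was -1.09, and its adjusted p was 0.072, or 8.73e-05 with the block (8.73e-05 to 0.298 over the alternatives). Of 16 chemokine and egress receptors tested 1 rose and 1 fell, with a median of 0.05, and the block called 4 higher and 3 lower. The call of Il7r was lost without wild-type replicates 2 or 3 (adjusted p = 0.0935 and 0.0627), and that of Ccr4 without wild-type replicates 1 or 2 (adjusted p = 0.0534 and 0.0752). Ccr9 (adjusted p = 0.145, range 0.000105 to 0.145) and Il7r (adjusted p = 0.311, range 0.000735 to 0.311) were not called in 1 fit to all 12 arrays.

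Several of the largest differences fell on single members of gene families. The lists of these families were chosen with earlier results of these data known, so their counts of calls are not a result about the families. Over all genes tested 1.99% were called. Among 14 flippases, which move phospholipids to the inner leaflet of membranes, and their subunits, 1 rose and 1 fell. Atp8a2 was at 5.27, 5.25 and 5.32 with TCF-1 and at 7.51, 8.03 and 7.78 without it and rose by 2.50 (SE 0.14, limma adjusted p = 1.17e-05), and Atp8b4 was at 8.95, 9.06 and 8.78 with TCF-1 and at 6.77, 7.52 and 6.56 without it and fell by 1.98 (SE 0.21, limma adjusted p = 0.00132). The closest relative of the first, Atp8a1, differed by 0.05 (adjusted p = 0.836), and the other 12 had uncalled differences of -0.41 to 0.31. Of 7 GIMAP genes tested, GTPases of lymphocyte survival, Gimap4 alone was called. It was at 4.73, 5.37 and 5.34 with TCF-1 and at 6.83, 6.88 and 6.47 without it and rose by 1.58 (adjusted p = 0.00235), and the other 6 had differences of -0.16 to 0.52. Among 14 poly-ADP-ribose polymerase family genes Parp8 was the 1 called. It was at 8.22, 8.47 and 7.95 with TCF-1 and at 6.14, 6.06 and 5.95 without it, a fall of 2.16 (SE 0.14, limma adjusted p = 2.94e-05), and the other 13 had differences of -0.33 to 0.16. Of 20 aldo-keto reductase and retinoid genes tested 2 rose and 1 fell. Akr1c12, an aldo-keto reductase, was at 4.39, 4.47 and 4.30 with TCF-1 and at 7.12, 6.65 and 6.37 without it and was called higher (limma adjusted p = 6.65e-05). All 3 wild-type arrays lie under the filter level of 4.78, and the gene passed the filter only through the TCF-1-deficient arrays. Its rise was at least 1.93, counted from that level, beside a measured difference of 2.33. Its near copy Akr1c13 stood 1.00 higher without a call (adjusted p = 0.0515), with a call under the block (adjusted p = 0.00731, 0.00731 to 0.248 over the alternatives); whether probes of one read the other was not tested. Rdh10, which makes retinal from retinol, was at 6.40, 6.51 and 6.48 with TCF-1 and at 8.55, 8.18 and 7.58 without it and rose by 1.64 (adjusted p = 0.00356), and Dhrs3, which runs the reverse step, fell by 0.73 (adjusted p = 0.0457). The call of Dhrs3 was lost without wild-type replicates 1, 2 or 3 (adjusted p = 0.166, 0.0954 and 0.129) or TCF-1-deficient replicates 1 or 3 (0.0535 and 0.173). Dhrs3 (adjusted p = 0.121) was not called in the larger batch alone. Dhrs3 (adjusted p = 0.0772) was not called after repeated quantile normalisation. Dhrs3 (adjusted p = 0.0621) was not called without a filter.

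Other large falls were those of Aim2, Ctla2a and Gria3, each the 1 call of its list. These lists too were chosen with earlier results known, so the counts are no result about them, and 1.99% of all genes tested were called. Aim2, a sensor of DNA in the cytosol, was at 8.26, 8.25 and 7.65 with TCF-1 and at 5.91, 6.32 and 5.73 without it and fell by 2.07 (SE 0.19, limma adjusted p = 0.000476), the 1 call among 13 sensor and inflammasome genes, which had a median of 0.02. Ctla2a, which resembles the inhibitory propeptide of cathepsins, was at 7.90, 7.31 and 6.83 with TCF-1 and at 5.71, 4.87 and 5.27 without it and fell by 2.07 (adjusted p = 0.00363). Its near copy Ctla2b was at 6.36, 5.82 and 6.17 with TCF-1 and at 6.76, 4.90 and 5.19 without it, with overlapping groups and no call (adjusted p = 0.543). The 16 genes of the Ctla2, cathepsin and cystatin list had no other call and a median of 0.03. Clec2d, a ligand of the NK receptor NKR-P1, was at 6.88, 6.56 and 5.55 with TCF-1 and at 5.05, 5.15 and 4.60 without it and fell by 1.40 (adjusted p = 0.0338). It passed the filter (4.78) only through the wild-type arrays, and 1 of its TCF-1-deficient arrays lay under that level. Of 19 C-type lectin genes measured only 6 were bright enough to be tested, and the block called 3 of them lower, Clec2d, Clec2i and Clec12a. Gria3, an AMPA-type glutamate receptor subunit, was at 8.21, 8.30 and 8.00 with TCF-1 and at 5.96, 6.28 and 6.08 without it and fell by 2.06 (SE 0.13, limma adjusted p = 2.7e-05), the 1 call among 22 glutamate receptor and channel genes (median -0.01). In 1 fit to all 12 arrays it was not called (adjusted p = 0.103, range over the alternatives 4.7e-07 to 0.103). The call of Clec2d was lost without wild-type replicates 1 or 2 (adjusted p = 0.0936 and 0.172) or TCF-1-deficient replicate 3 (0.175). Clec2d (adjusted p = 0.0797) was not called in the larger batch alone. Clec2d (adjusted p = 0.0542) was not called without a filter. Clec2d (adjusted p = 0.0564) was not called with a trended robust variance.

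Of the list of PI3K, SGK, Akt, WNK and FoxO genes, Stk39 rose and Sgk3, Pik3cd and Pdk1 fell. Stk39, the kinase SPAK of ion cotransporters, was at 5.63, 5.47 and 5.48 with TCF-1 and at 7.72, 7.83 and 7.28 without it and rose by 2.08 (SE 0.15, limma adjusted p = 5.45e-05). Slc12a2, a sodium, potassium and chloride cotransporter that this kinase activates, fell by 0.86 (adjusted p = 0.0132) and was picked after its value was seen. Sgk3, a kinase activated through PI3K, was at 6.74 ± 0.34 with TCF-1 and at 5.37 ± 0.18 without it (mean ± SD, n = 3), with no overlap, and fell by 1.37 (adjusted p = 0.00363). Sgk3 passed the filter only through the wild-type arrays. Pik3cd, the p110 delta catalytic subunit, fell by 0.67 (adjusted p = 0.0453). Pdk1 fell by 0.87 (adjusted p = 0.00434); it stands in the same list, but the symbol belongs to pyruvate dehydrogenase kinase, which limits the entry of pyruvate into the citric acid cycle. Of 28 genes of that list 1 rose, 3 fell and 24 did not pass, beside 1.99% called over all genes tested. The median of the list was -0.12, and the block called 1 higher and 7 lower, among them Pik3r1 (-0.64) and Akt2 (-0.50). Agfg1, which takes part in membrane transport and lies outside the lists, was at 8.80, 8.78 and 8.74 with TCF-1 and at 10.76, 10.99 and 10.75 without it and rose by 2.06 (SE 0.12, limma adjusted p = 1.17e-05), with its 6 arrays in tight groups. Jun fell by 0.88 and Zfp36l2, which destabilises messenger RNAs, fell by 0.66 (adjusted p = 0.0244 and 0.0244), the 2 calls among 27 AP-1, Egr and other immediate-early genes, which had a median of 0.13. The call of Slc12a2 was lost without wild-type replicate 2 (adjusted p = 0.0882), and that of Pik3cd without wild-type replicates 1, 2 or 3 (adjusted p = 0.0809, 0.212 and 0.141) or TCF-1-deficient replicates 1 or 3 (0.0642 and 0.173). The call of Jun was lost without wild-type replicates 1 or 2 (adjusted p = 0.0839 and 0.118) or TCF-1-deficient replicate 3 (0.123), and that of Zfp36l2 without wild-type replicates 1, 2 or 3 (adjusted p = 0.106, 0.12 and 0.0664) or TCF-1-deficient replicate 3 (0.0769). Jun (adjusted p = 0.259, range 0.00128 to 0.259) and Zfp36l2 (adjusted p = 0.104, range 0.00319 to 0.12) were not called in 1 fit to all 12 arrays. Jun (adjusted p = 0.0745), Pik3cd (adjusted p = 0.0667) and Zfp36l2 (adjusted p = 0.0646) were not called in the larger batch alone. Pik3cd (adjusted p = 0.0719) and Zfp36l2 (adjusted p = 0.0987) were not called after repeated quantile normalisation. Pik3cd (adjusted p = 0.0575) was not called without a filter.

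**Figure D3:**
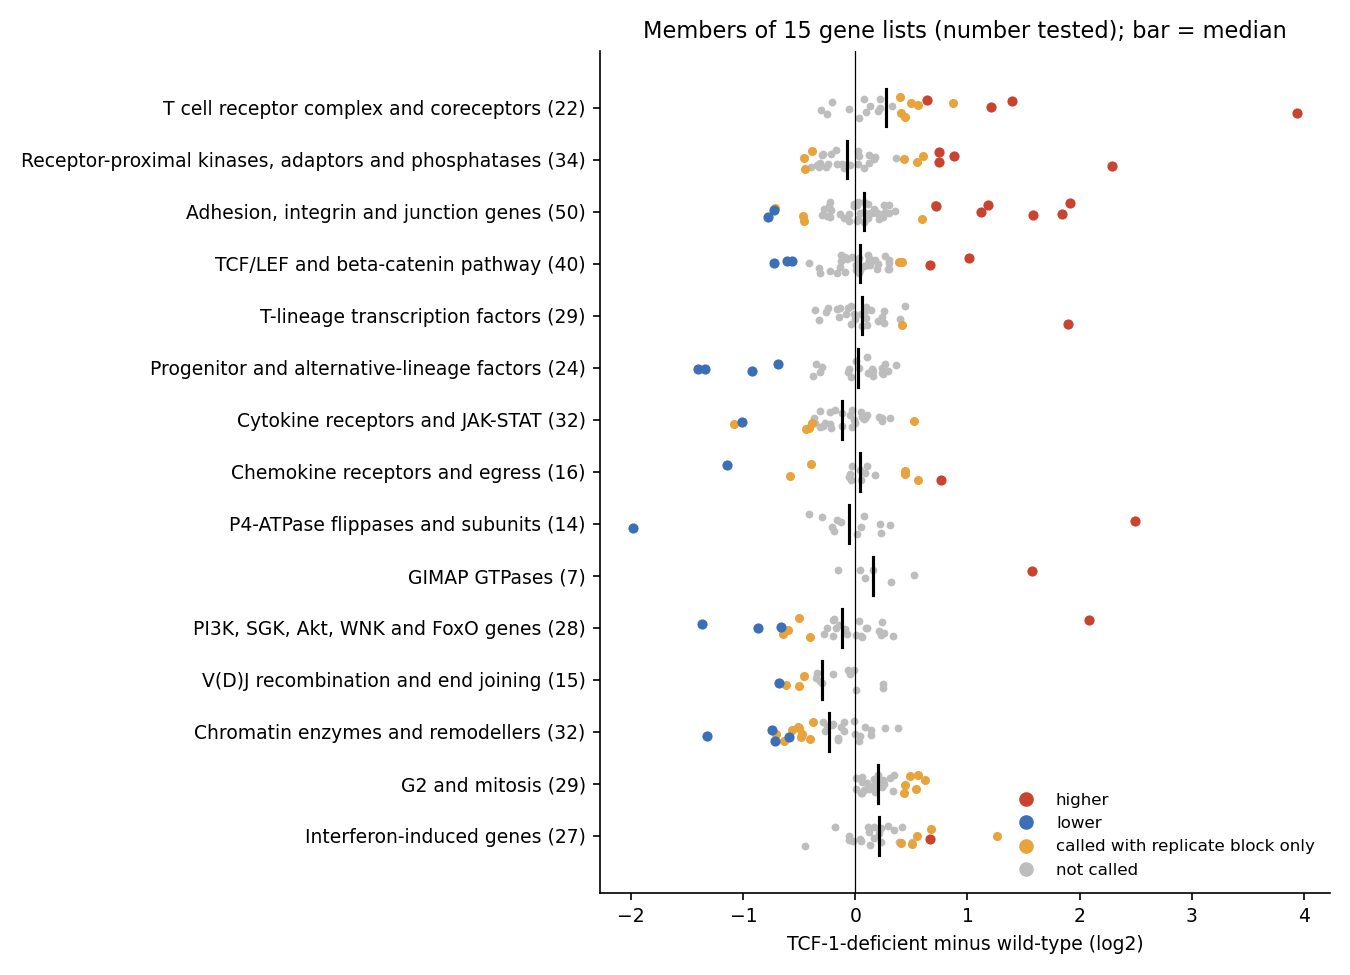
Log2 difference (TCF-1-deficient minus wild-type DN3) of each tested member of 15 gene lists, with the number tested beside each name, called members in red or blue, those called with the replicate block alone in orange and a bar at the median. Medians run from -0.30 (V(D)J recombination) to 0.27 (T cell receptor complex), and most lists hold 1 to 8 called genes among many near 0.

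Among genes of receptor gene rearrangement 1 was called. Dntt, the terminal transferase that adds untemplated bases at junctions, was at 10.76, 11.07 and 10.96 with TCF-1 and at 10.25, 10.30 and 10.18 without it and fell by 0.69 (limma adjusted p = 0.0176). It was the 1 call among 15 V(D)J recombination and end-joining genes, beside 1.99% called over all genes tested. In this list 12 lay below 0, with a median of -0.30 beside 0.03 over all genes. Rag1 and Rag2, the recombinase genes, differed by -0.30 and -0.50 without calls (adjusted p = 0.264 and 0.0871). The block called 4 genes lower: Dntt, Rag2 (0.0139, 0.0139 to 0.455 over the alternatives), Trp53bp1 and Xrcc4. Of the 15 DN3 genes, Dtx1 rose, Il7r and Dntt fell and 12 did not pass. Their mean level was 8.88 to 8.91 on the wild-type arrays and 8.58 to 8.82 on the TCF-1-deficient arrays. Il2ra was at 10.73, 10.77 and 10.71 with TCF-1 and at 10.61, 10.88 and 10.37 without it, and Ptcra at 7.08, 7.07 and 7.18 with TCF-1 and at 7.46, 7.09 and 7.01 without it; both overlapped between the groups (adjusted p = 0.705 and 0.801). The small Il2ra difference of -0.12 changed sign without TCF-1-deficient replicate 3, and that of Ptcra (0.08) without TCF-1-deficient replicate 1. The call of Dntt was lost without wild-type replicates 2 or 3 (adjusted p = 0.119 and 0.0683) or TCF-1-deficient replicate 3 (0.0848).

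The list of chromatin enzymes and remodellers, chosen with earlier results known, gave 4 falls. Kdm5b, a demethylase of histone H3 lysine 4, was at 7.88, 7.95 and 7.74 with TCF-1 and at 6.72, 6.54 and 6.35 without it and fell by 1.32 (SE 0.13, limma adjusted p = 0.000646). Smarca4, the BRG1 ATPase of the SWI/SNF complex, was at 9.41, 9.47 and 9.34 with TCF-1 and at 8.70, 8.66 and 8.72 without it and fell by 0.72 (adjusted p = 0.0085). Tet1, which oxidises methylated cytosine, fell by 0.75 and Kmt2a, the MLL1 methyltransferase, fell by 0.60 (adjusted p = 0.00997 and 0.0236). Of 32 chromatin enzymes and remodellers tested these 4 fell and 28 did not pass, beside 1.42% called lower over all genes tested. There was no rise, beside 0.568% called higher over all genes. The median of the list was -0.23, 25 members lay below 0, and the block called 13 lower and none higher. Without wild-type replicate 2 a single member was called, and without TCF-1-deficient replicate 2 there were 9. A family noticed in the results, the 288 tested genes whose symbols begin with Zfp, had 15 falls (5.21%, beside 1.42% of all genes) and no rise, with a median of -0.13; it was chosen after its values were seen. Without wild-type replicate 2, 1 of them was called, with a median of -0.12. The call of Smarca4 was lost without wild-type replicate 2 (adjusted p = 0.0705), and that of Tet1 without wild-type replicate 2 (adjusted p = 0.0655). The call of Kmt2a was lost without wild-type replicates 1, 2 or 3 (adjusted p = 0.0898, 0.137 and 0.0664) or TCF-1-deficient replicate 3 (0.0999). Kdm5b (adjusted p = 0.128, range 1.75e-05 to 0.128) and Kmt2a (adjusted p = 0.0588, range 0.00408 to 0.137) were not called in 1 fit to all 12 arrays. Kmt2a (adjusted p = 0.0958) was not called in the larger batch alone.

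Of the cell cycle lists, that of G1 genes held calls and those of G2 and mitosis and of S phase held none, beside 1.99% called over all genes tested. The 29 genes of G2 and mitosis that were tested all had differences above 0 (median 0.20) without a single call, whereas with the block 6 were higher, among them Bub1 (0.56), Birc5 (0.54), Ccnb2 (0.49) and Cdc25c (0.62). The 27 S phase genes had a median of 0.12, no call, and 1 call with the block (Rrm2, 0.44). Of 26 G1 cyclins, kinases and inhibitors, Cdkn2c, which encodes the inhibitor p18, rose by 0.96, from 5.02, 4.70 and 4.93 to 5.66, 6.23 and 5.65, and Cdk6, a kinase that p18 blocks, fell by 0.65 (adjusted p = 0.0165 and 0.0419). Ccnd2, given above, was the third called member. Cdkn2a, the locus of p16 and p19, was at 5.03, 5.30 and 5.36 with TCF-1 and at 5.38, 5.55 and 5.19 without it, with overlapping groups and no call (adjusted p = 0.634). None of 17 Bcl-2 family genes was called; the median was 0.03, Bcl2 differed by -0.20 and Bcl2l1 by 0.02, and Bnip3l stood 0.62 lower (adjusted p = 0.0518). The call of Cdkn2c was lost without wild-type replicates 2 or 3 (adjusted p = 0.104 and 0.0602), and that of Cdk6 without wild-type replicates 2 or 3 (adjusted p = 0.222 and 0.131) or TCF-1-deficient replicates 1 or 3 (0.0789 and 0.173). Cdk6 (adjusted p = 0.0794) was not called after repeated quantile normalisation. Cdk6 (adjusted p = 0.0521) was not called without a filter.

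Among interferon-induced genes Ifi27 was called, and Ifitm3 was uneven over the TCF-1-deficient arrays. Ifitm3, an antiviral membrane protein, was at 7.28, 7.20 and 7.03 with TCF-1 and at 9.24, 8.80 and 7.26 without it, so that replicates 1 and 2 were high and replicate 3 overlapped the wild-type arrays; the difference of 1.26 was not called (adjusted p = 0.137). Ifi27 rose by 0.66 (adjusted p = 0.0167) on all 3 arrays, from 8.38, 8.24 and 8.32 to 8.97, 9.09 and 8.87. Of 27 tested it was the 1 call, beside 1.99% called over all genes tested. In this list 22 lay above 0, and the median was 0.21. Without replicate 3 there were 3 calls, all higher, and the block called 6 higher. The part of the low-Xist array in this list was not tested further. The call of Ifi27 was lost without wild-type replicates 1, 2 or 3 (adjusted p = 0.0516, 0.115 and 0.0636).

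Markers of other cell types were followed to see what else the sort could hold. Only 1.99% of all genes tested were called, so lists this short can lack a call whichever cells were sorted. Of 13 gamma-delta T cell markers tested, Cd163l1, a scavenger receptor, rose by 1.03 (adjusted p = 0.0147), from 6.78, 6.27 and 6.60 to 7.47, 7.91 and 7.36, and Tmem176b fell by 0.59 (adjusted p = 0.0359). The mean level over the list was 5.45 to 5.52 on wild-type and 5.66 to 5.76 on TCF-1-deficient arrays. Of 11 NK and innate lymphoid markers Gzma, granzyme A, rose by 0.68 (adjusted p = 0.017); the mean level was 5.39 to 5.46 and 5.57 to 5.75. Id2, an antagonist of E proteins in that list, was at 5.29, 5.53 and 5.64 with TCF-1 and at 6.73, 6.32 and 5.88 without it and was called with the block alone (adjusted p = 0.0122, 0.0122 to 0.292 over the alternatives). None of 11 B cell, 16 myeloid and dendritic, 5 mast cell and 6 erythroid markers was called. Their mean levels were 5.04 to 5.18 against 5.08 to 5.17, 5.05 to 5.17 against 5.19 to 5.30, 4.97 to 5.01 against 4.92 to 5.04, and 5.06 to 5.16 against 5.16 to 5.22. Of 16 thymic stroma markers Pdgfrb rose by 0.60 (adjusted p = 0.0324), with mean levels of 5.53 to 5.62 and 5.63 to 5.77. Of 18 markers of DP and mature T cells, the 3 calls higher were Cd8a, Cd8b1 and Dusp10 and the call lower was Il7r, with a median of 0.11, and mean levels of 6.94 to 7.09 and 7.07 to 7.19. Of the markers measured, 3 of 16 gamma-delta, 7 of 18 NK, 5 of 16 B cell, 7 of 21 myeloid, 4 of 10 mast cell and 2 of 8 erythroid genes had a wild-type mean under the filter level. Under the block the gamma-delta list had 3 called higher and 1 lower, the NK list 3 higher, the stroma list 2 higher and 1 lower, the myeloid list 1 higher (Ctss), the mast cell list 1 lower (Cpa3), and the B cell and erythroid lists none. The part of these cell types in the results above was not tested. The call of Cd163l1 was lost without wild-type replicates 2 or 3 (adjusted p = 0.0882 and 0.0546), and that of Tmem176b without wild-type replicates 1, 2 or 3 (adjusted p = 0.149, 0.124 and 0.0683) or TCF-1-deficient replicates 1, 2 or 3 (0.0562, 0.0556 and 0.138). The call of Gzma was lost without wild-type replicates 1, 2 or 3 (adjusted p = 0.081, 0.0752 and 0.0636), and that of Pdgfrb without wild-type replicates 1, 2 or 3 (adjusted p = 0.123, 0.185 and 0.0546) or TCF-1-deficient replicates 1 or 3 (0.0671 and 0.0827). Gzma (adjusted p = 0.0543, range 0.00271 to 0.0938) and Tmem176b (adjusted p = 0.103, range 0.00591 to 0.149) were not called in 1 fit to all 12 arrays. Gzma (adjusted p = 0.0938), Pdgfrb (adjusted p = 0.145) and Tmem176b (adjusted p = 0.138) were not called in the larger batch alone. Tmem176b (adjusted p = 0.0554) was not called after repeated quantile normalisation.

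The naming rule also took genes by the size of their signal, which depends on the probes, so it gives no order between genes. Taking genes with a wild-type mean under the median of all genes (5.44) and a mean above their 75th percentile (6.39) without TCF-1, the called ones were Akr1c12, Atp8a2, Gimap4 and Ptpn13. Meeting the rule in the reverse direction were Ctla2a, Sgk3, Cibar1, a BAR-domain protein of cilia, Prrg4, Zfp961 and the predicted genes Gm4759 and Gm5111. Gm4759 was at 6.39, 6.92 and 6.23 with TCF-1 and at 4.63, 5.36 and 4.49 without it and was called lower (adjusted p = 0.00569). It has 2 of its 3 TCF-1-deficient arrays under the filter level (4.78), so no size is given. Of the 79 called genes named by the rules, 5 passed the filter only through the group where they are high, namely Akr1c12, Clec2d, Gm4759, Sgk3 and Zfp991. Cibar1 was at 7.27, 6.66 and 6.59 with TCF-1 and at 5.39, 5.60 and 5.22 without it, a fall of 1.44 (adjusted p = 0.00363). Further large falls by the naming rule were Sestd1, which binds phospholipids (-1.39), Ppic, cyclophilin C (-1.36), Zfp991 (-1.32), Atxn1, the ataxin 1 repressor (-1.31), Wdr78, a ciliary dynein subunit (-1.25), Cox6b2, a testis form of a cytochrome oxidase subunit (-1.24), and Dgke, a diacylglycerol kinase (-1.20), with limma adjusted p from 0.00178 to 0.0381. Further large rises were Dap, death-associated protein (1.23, adjusted p = 0.00569), and Hdgfl3 (1.16, adjusted p = 0.00758). The call of Sestd1 was lost without wild-type replicates 2 or 3 (adjusted p = 0.0867 and 0.0514) or TCF-1-deficient replicate 3 (0.0886), and that of Ppic without wild-type replicate 2 (adjusted p = 0.0787). The call of Zfp991 was lost without wild-type replicates 1 or 2 (adjusted p = 0.0797 and 0.135) or TCF-1-deficient replicates 1 or 3 (0.0517 and 0.0765), and that of Atxn1 without wild-type replicates 1 or 2 (adjusted p = 0.126 and 0.187) or TCF-1-deficient replicates 1 or 3 (0.0731 and 0.19). The call of Cox6b2 was lost without TCF-1-deficient replicate 3 (adjusted p = 0.0886), and that of Dgke without wild-type replicate 2 (adjusted p = 0.0566). The call of Hdgfl3 was lost without wild-type replicate 2 (adjusted p = 0.0516). Cibar1 (adjusted p = 0.193, range 9.46e-05 to 0.193), Cox6b2 (adjusted p = 0.0598, range 0.000105 to 0.0886), Dap (adjusted p = 0.17, range 2.39e-05 to 0.17), Ppic (adjusted p = 0.107, range 9.46e-05 to 0.107) and Zfp961 (adjusted p = 0.0588, range 0.000163 to 0.0588) were not called in 1 fit to all 12 arrays. Atxn1 (adjusted p = 0.156) and Zfp991 (adjusted p = 0.0849) were not called in the larger batch alone. Atxn1 (adjusted p = 0.0502) was not called after repeated quantile normalisation. Atxn1 (adjusted p = 0.0604) was not called without a filter.

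The lymphomas, which share the genotype of the TCF-1-deficient DN3 cells but not their age, give a second set of levels without TCF-1, shown as the lowest, median and highest of the 6 arrays and not compared by a test. Cd2 was at 9.25, 9.76 and 10.02 in the lymphomas, level with TCF-1-deficient DN3 cells. Ikzf3 at 9.11, 9.36 and 9.47, Afdn at 9.04, 9.27 and 9.35 and Gimap4 at 8.12, 8.56 and 8.90 lay above every DN3 array of either genotype. Lef1 was at 9.99, 10.26 and 10.40, and Ptpn14 at 8.58, 9.04 and 9.15, close to or above the TCF-1-deficient DN3 arrays. Other genes that rose in DN3 cells were low again in the lymphomas. Akr1c12 was at 3.91, 4.05 and 4.25, under all 3 wild-type DN3 arrays. Tubb3 was at 6.63, 7.05 and 7.15, under every DN3 array, and Dsp was at 4.52, 4.76 and 5.13. Among the falls, Atp8b4 was at 4.93, 5.12 and 6.35, Parp8 at 4.51, 5.40 and 5.94 and Itga4 at 5.52, 5.95 and 7.12, all below the TCF-1-deficient DN3 arrays. Ppic and Ccr9 went the other way: Ppic was at 6.97, 8.28 and 8.84, and Ccr9 at 6.18, 7.63 and 8.24, with lymphoma medians above every DN3 array. Gria3 was at 4.35, 7.34 and 7.52, between the DN3 groups on 5 arrays and under both on 1, and Il7r was at 5.67, 6.15 and 8.26.

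**Figure D4:**
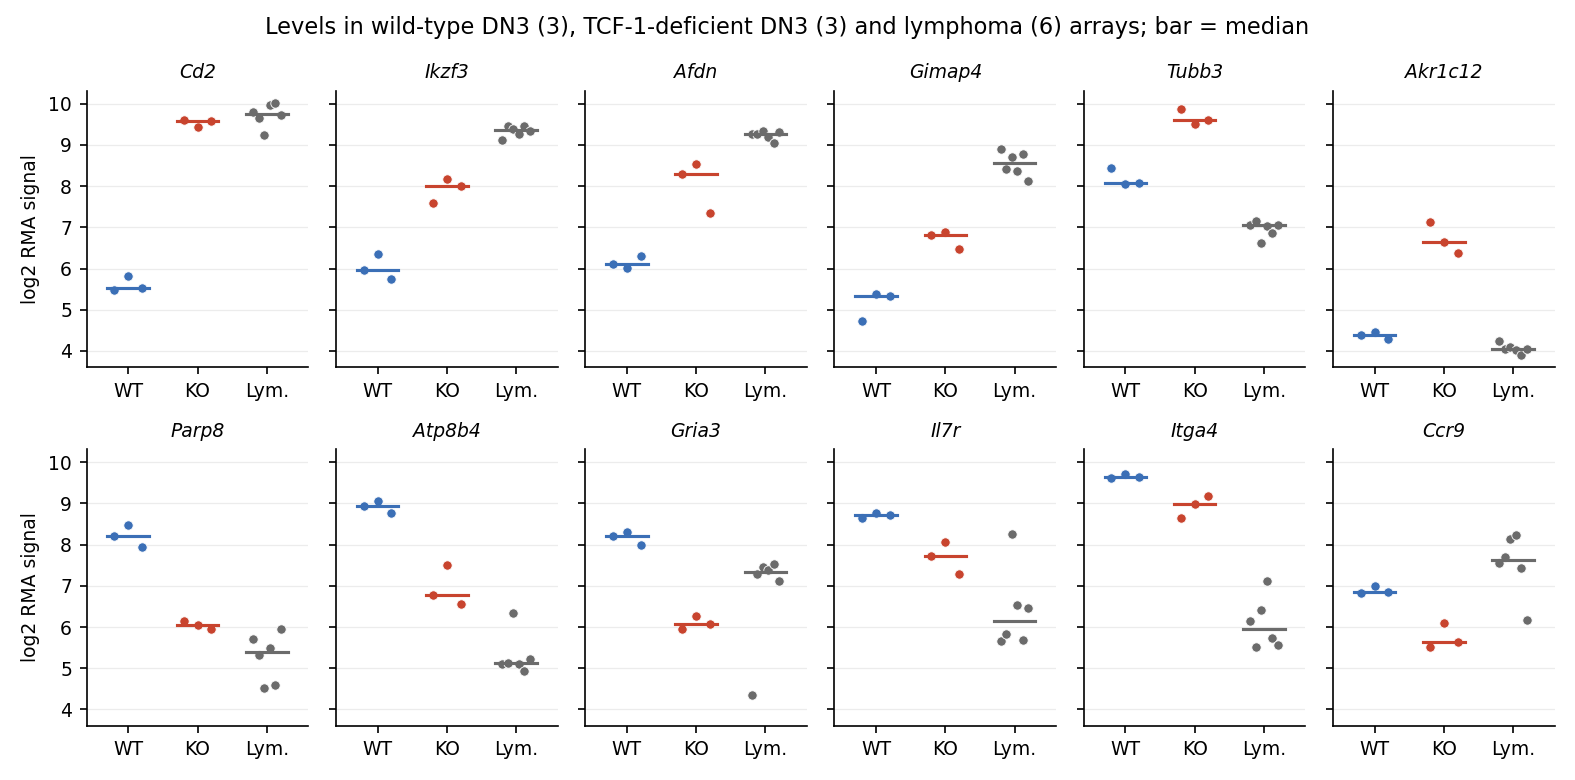
Log2 RMA signal of 12 genes on wild-type DN3 (3, blue), TCF-1-deficient DN3 (3, red) and lymphoma arrays (6, grey), with a bar at each median. Afdn, Ikzf3 and Gimap4 are highest in lymphomas, and Akr1c12 and Tubb3 are highest in TCF-1-deficient DN3 cells among the 3 groups. Il7r reaches 8.26 in 1 lymphoma with a median of 6.15.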

How the data were processed

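Gene expression was measured on 12 arrays, of which the 6 of DN3 cells enter the comparison. The authors deposited their log2 values for each transcript cluster, and the submitters' processing notes name RMA and Partek, with versions and settings not given in the sources used here. No log base is stated, and the range of the values points to base 2. RMA gives all arrays a common distribution, so that the total RNA of a cell leaves no trace, and dim or very bright genes have understated differences.

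Of 35556 rows, 21789 had 1 gene symbol in the platform annotation, 1621 had several and 12146 had none; 21698 of the first matched RefSeq. The row with the highest mean over 12 arrays stood for a gene (999 genes had several), and the 4985 genes under the 25th percentile of the mean (4.78) were left out. Both groups were fitted with limma 3.58.1 in R 4.3.3 (lmFit and eBayes, two-sided), with p-values adjusted by Benjamini and Hochberg over 14953 genes; every adjusted p of a gene is from limma. The fit was tested on simulated data. Replicates are labelled biological, but how the mice were related is not given, so p-values reflect only how these samples vary.

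Deviations of same-numbered arrays from their group means correlated at 0.51, 0.42 and 0.25, and number 1 also shares a batch. Differently numbered arrays correlated at -0.41 to 0.06, and deviations from a mean of 3 arrays push such values down. The labels do not say that the numbers pair the samples, so the block was used as an alternative setting alone. The correlations come from the same values that the block was fitted to, so they are no separate check of it. The batch was read from 34 unnamed rows. Other settings changed the normalisation, filter, row choice, variance model, arrays fitted, weights, block and batch, and left out each array in turn.

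The comparison, its gene lists and its rules were chosen with earlier results of these data known. Named were, among called genes with no overlap between arrays, the 20 that rose most and the 20 that fell most (without predicted genes, Xist and Y-linked genes), every called list member, up to 6 members per list called with the block, a set of T cell genes, and genes that crossed from under the median to above the 75th percentile or back. Genes outside this rule are marked as picked after their values were seen. Promoter sequences are from RefSeq, GRCm38.p6, and 11776 of the genes tested had a window.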

Additional observations from a re-analysis of the deposited data

Results flagged for a closer look

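Among the lymphoma levels of 44 genes named above, 4 had 1 tumour whose gap to its nearest neighbour was more than 0.625 of the whole range over the 6 tumours. Chance alone marks about 1 in 20 groups, so some such cases come up without any cause. Gria3 was at 4.35 in lymphoma 1, against a median of 7.34. Atp8b4 was at 6.35 in lymphoma 3, against a median of 5.12. Zfp991 was at 4.15 in lymphoma 3, against a median of 4.48, with all 6 lymphomas under the filter level of 4.78. Il7r was at 8.26 in lymphoma 3, against a median of 6.15, and thus nearer to the wild-type DN3 arrays than the other lymphomas. No group of DN3 arrays was large enough for this check.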

How the results depend on the processing

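Against 298 calls, array weights gave 472, the replicate block 1380, the batch as a term 754 and the larger batch alone 144, while leaving out 1 array gave between 57 and 443. The other 7 settings gave 244 to 311, and calls of at least 2-fold numbered 47 to 79 over all 17 alternatives, beside 65. Of the 298 genes, 35 were called in every alternative (23 higher and 12 lower). Of the 79 called genes named by the rule, 37 were called whichever array was left out and 42 were not. The fit to all 12 arrays ended 22 of the 79 calls, the larger batch alone 20, repeated quantile normalisation 8 and the lack of a filter 7. The differences that changed sign were uncalled: with 1 array left out Il2ra ran from -0.25 to 0.0067, the latter without TCF-1-deficient replicate 3, and Ptcra from -0.0572 without TCF-1-deficient replicate 1 to 0.17, with -0.0721 in the larger batch. The cause was not tested. The block changed no call to uncalled, and added 53 among the genes named. With 3 arrays a group, small differences stay below detection, and signals near the floor limit what dim genes can show.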

Other observations

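Called genes outside the lists, picked after their values were seen, included receptors and lipid enzymes. Nr3c1, the glucocorticoid receptor gene, was at 8.05, 8.18 and 7.91 with TCF-1 and at 6.94, 7.37 and 7.17 without it and fell by 0.89 (limma adjusted p = 0.0102). Insr, the insulin receptor gene, fell by 0.72 (adjusted p = 0.03). Pla2g4a and Alox5ap, which release arachidonic acid and pass it to lipoxygenase, fell by 0.94 and 0.96 (adjusted p = 0.0095 and 0.0134). Of these, Pla2g4a passed the filter (4.78) only through the wild-type arrays. Fabp5, a carrier of fatty acids, was at 8.23, 8.20 and 8.12 with TCF-1 and at 9.37, 9.45 and 8.90 without it and rose by 1.06 (adjusted p = 0.00694). The Kruppel-like factor gene Klf7 and Heg1, a membrane glycoprotein, rose by 0.87 and 0.86 (adjusted p = 0.00609 and 0.00507), and the calls of these 2 and of Fabp5 held without any single array. Nrp1, a semaphorin receptor, rose by 0.90 and Il10, an inhibitory cytokine, by 0.75 (adjusted p = 0.0156 and 0.0272). Il10 was at 4.75, 4.79 and 4.43 with TCF-1 and at 5.53, 5.52 and 5.17 without it. Its wild-type mean of 4.66 lay under the filter level (4.78), so the size of its rise is uncertain. The call of Nr3c1 was lost without wild-type replicate 2 (adjusted p = 0.0752), and that of Insr without wild-type replicates 1, 2 or 3 (adjusted p = 0.0598, 0.161 and 0.104) or TCF-1-deficient replicate 3 (0.102). The call of Pla2g4a was lost without wild-type replicate 2 (adjusted p = 0.0576) or TCF-1-deficient replicate 3 (0.0533), and that of Alox5ap without wild-type replicate 2 (adjusted p = 0.0887) or TCF-1-deficient replicate 3 (0.0765). The call of Nrp1 was lost without wild-type replicates 1, 2 or 3 (adjusted p = 0.0584, 0.0512 and 0.0546), and that of Il10 without wild-type replicates 1, 2 or 3 (adjusted p = 0.0669, 0.0928 and 0.0949) or TCF-1-deficient replicates 1 or 2 (0.0556 and 0.0576). Alox5ap (adjusted p = 0.114) was not called in 1 fit to all 12 arrays. Nrp1 (adjusted p = 0.0631) was not called in the larger batch alone.

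Under the filter lay Casp1, the inflammasome protease, and Gzmb, granzyme B. Casp1 was at 5.89, 5.98 and 4.92 on the wild-type and 4.55, 4.42 and 4.44 on the TCF-1-deficient arrays, a difference of -1.12 (limma adjusted p = 0.0553 without a filter). Gzmb was at 4.51, 4.54 and 4.36 and at 5.36, 5.93 and 4.98, a difference of 0.96 (adjusted p = 0.0559 without a filter). Neither overlapped between the groups, which also held for 22.0% of all genes tested, and neither was called.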
